A study of Mus musculus with 8 samples.

Results

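The genes described here belong to the machinery of programmed cell death: the BCL2 family, the caspases, the death receptors with their adaptors, the inhibitor of apoptosis proteins, and 3 kinases tied to this pathway. They were chosen by symbol from a list of 35, and 33 of the 35 had a probe set that the platform annotation assigns to that symbol alone, out of 19938 genes measured in that way. A gene with several such probe sets is represented by the brightest. Bax and Ripk1 were not analysed here.

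All samples were cultured embryonic fibroblasts of Daxx knockout mice on the FVB/N background, and every group, controls included, carries that knockout. The DaxxA group (2 arrays) and the DaxxB group (2 arrays) had Daxx put back, and the vector group (4 arrays) had received a vector. What A and B stand for is not stated in the labels, nor whether a group is 1 clone or 1 culture, nor which part of Daxx the knockout removes, and no death ligand or drug is named. Nothing says that the samples came from separate cultures, so the p-values cover the spread among these arrays and that spread may be technical. The study asked which genes lie downstream of Daxx. Total RNA was amplified, labelled with biotin and hybridised to Affymetrix arrays, and each value is a log2 signal, on which a difference of 1 is a 2-fold change.

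Apoptosis can start inside the cell or at its surface. In the mitochondrial route, BH3-only proteins sense stress and engage the anti-apoptotic BCL2 proteins or the pore-forming effectors, after which cytochrome c, Apaf1 and caspase-9 form the apoptosome. In the receptor route, Fas and the tumour necrosis factor receptors recruit adaptors such as Fadd and Tradd, and caspase-8 is activated there under the control of its inactive relative Cflar. Daxx was first described as a protein that binds the death domain of Fas and was reported to activate the kinase Map3k5 (ASK1), which signals to JNK. Dapk3 was reported to associate with Daxx in PML nuclear bodies.

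Vector replicate 2 stood apart from the other arrays, with an interquartile range of 2.79 over 35556 probe sets, against 3.31 to 3.39 elsewhere, and a mean correlation of 0.969 with arrays that correlated at 0.991 to 0.998 among themselves. Olfactory receptor genes, 1027 in number and silent in most tissues, had a median of 5.21 in this array and 4.65 to 4.70 in the others. For 19 of the 33 genes it gave the lowest of the 4 vector values, and for 10 the highest, so results are given over 8 arrays and over 7, without it. The Daxx probe set read 7.35 and 7.36 in DaxxA arrays and 7.46 and 7.23 in DaxxB arrays, against 7.34, 6.85, 7.27 and 7.16 in vector arrays. The groups overlapped, and the difference of 0.20 had p = 0.143 by exact permutation of the arrays (two-sided, smallest possible 0.0286). Whether its probes lie in the deleted or the reintroduced stretch is not given, so this does not check the labels, and the directions below rest on them.

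Among the 33 genes, Bcl2 and Casp8 rose and Casp12 fell in the Daxx arrays, each by less than 1.5-fold. These 3 passed an adjusted p below 0.05 in limma, fitted on all 19938 genes with Benjamini-Hochberg adjustment over all of them. The share was 9.09% of the members, beside 4.52% of all genes (902). By direction, 358 genes or 1.8% were higher and 544 or 2.73% were lower. The median difference was -0.0334 over the members and -0.0281 over all genes, with 15 members above 0 and 18 below. In 5 members the 4 Daxx values did not overlap the 4 vector values, Bcl2, Bid and Casp8 above and Bcl2l1 and Casp12 below, where 14.8% of all genes had such a separation. At an unadjusted p below 0.05 there were 7 members, beside 15.4% of all genes. The other 30 members gave no call, and the median half-width of the members' 95% intervals was 0.18 on the log2 scale.

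**Figure D1:**
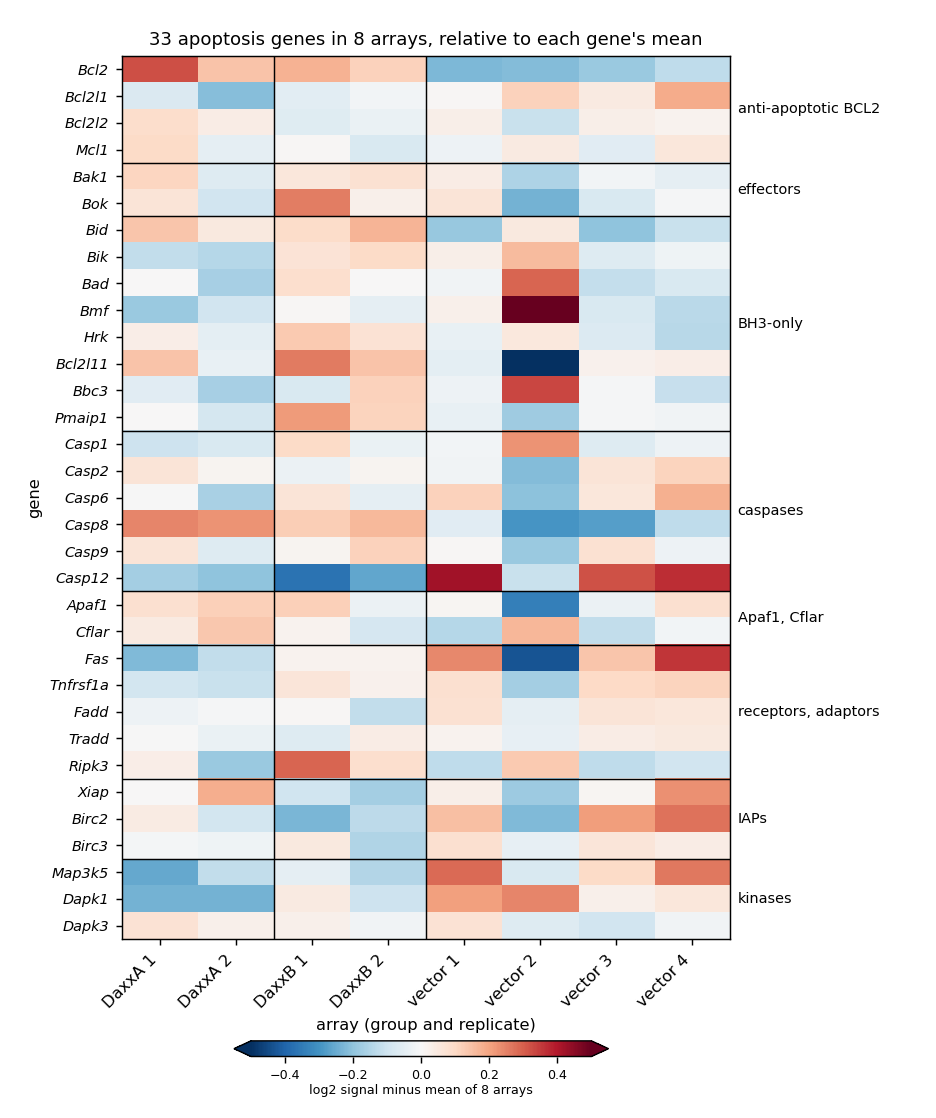
Log2 signal of the 33 genes (rows, grouped by role) in the 2 DaxxA, 2 DaxxB and 4 vector arrays (columns), each minus the gene's mean over the 8 arrays; red is above and blue below that mean. Bcl2 and Casp8 are above their mean in all 4 Daxx arrays, Casp12 is below it, and vector replicate 2 departs from the other vector arrays in many rows, Bmf, Bcl2l11 and Fas among them.

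Leaving out vector replicate 2 gave 7 called members, 21.2%, beside 12.8% of all genes. Bcl2, Casp8 and Casp12 were called again, Bid joined them on the higher side, and Fas, Birc2 and Map3k5 on the lower side. Among all genes 5.26% were higher and 7.57% lower. In 10 members the Daxx values did not overlap the 3 vector values, beside 24.4% of all genes. The median difference was then 0.000368 over the members and 0.0155 over all genes. After the arrays were set to the same median and median absolute deviation, only Casp12 was called among the members, and over all genes 197 were higher and 518 lower.

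Fibroblast markers were present, and some of them differed between the conditions. Of 14 measured, 13 lay above the 95th percentile of the olfactory receptor genes (6.07), all but Lum. Their summed level was 130.5 to 132.3 in Daxx arrays and 136.0 to 136.4 in vector arrays. Over 8 arrays Col1a2 was called as higher (1 of 14, beside 1.8% of all genes). Pdgfra, Pdgfrb, Dcn, Prrx1 and Twist2 were called as lower (5 of 14, beside 2.73%), Dcn (-1.47) and Prrx1 (-1.07) by most. The others gave no call: Col1a1, Col3a1, Vim and Fn1 differed by 0.01 to 0.13, and Thy1, Lum, Postn and S100a4 by -0.35 to -0.23. The part of these differences in the results here was not tested. Leukocyte markers passed 6.07 in 5 of 10: Cd68, Cd14, Tyrobp, Cd3e and Fcer1g, but not Ptprc, Adgre1, Csf1r, Itgam or Laptm5. The 10 summed to 58.3 to 59.6 in Daxx arrays and 58.3 to 62.3 in vector arrays. Vector replicate 2 gave that highest value, as it did in each list named next. Epithelial markers passed in 3 of 9 (Krt8, Krt18 and Cldn4, not Epcam, Cdh1, Krt5, Krt14, Cldn7 or Esrp1). Endothelial markers passed in 3 of 8 (Tie1, Esam and Egfl7, not Pecam1, Cdh5, Kdr, Tek or Emcn). Skeletal muscle markers passed in 5 of 6 (all but Myh3) and neural in 3 of 5 (Tubb3, Sox10 and Map2). In these lists only the neural Map2 was called, as higher. With markers on both sides of 6.07, these lists do not show whether such cells were present. In bulk RNA, fewer cells of a type and less RNA per cell cannot be told apart.

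The anti-apoptotic proteins hold the effectors in check, and Bcl2 is the founding member. Bcl2 read 9.90 and 9.72 in DaxxA arrays and 9.75 and 9.69 in DaxxB arrays, against 9.35, 9.36, 9.39 and 9.45 in vector arrays. Every Daxx value lay above every vector value, vector replicate 2 among them. The difference was 0.38 (SE 0.061, 1.3-fold, limma adjusted p = 0.0101, n = 4 and 4) and 0.37 on 7 arrays (adjusted p = 0.00186). It was called in all 8 fits that left out 1 array, at 0.33 to 0.40. With the arrays at a common spread the difference was 0.27 and the call was lost (adjusted p = 0.228).

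Bcl2l1, which encodes BCL-XL, lay on the other side. It read 7.80, 7.66, 7.82 and 7.86 in Daxx arrays, against 7.88, 7.99, 7.92 and 8.06 in vector arrays. The groups lay next to each other without overlap, and the difference of -0.18 (95% interval -0.33 to -0.03) did not pass (adjusted p = 0.217). Mcl1, a short-lived guardian of many cell types, differed by -0.01 (interval -0.14 to 0.12), and Bcl2l2, which encodes BCL-W, by 0.02 (-0.11 to 0.16).

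Sequence upstream of Bcl2 and Casp12 is shown because Bcl2 was the member called in every fit without 1 array and Casp12 the only member called as lower over 8 arrays. The stretches are the 216 bases of RefSeq's promoter windows (GRCm38.p6) that lie outside the annotated gene in both, read 5′ to 3′ on the gene's strand, with capitals for matches on either strand to GGGCGG (the GC box) or CCAAT (the CCAAT box). The window listed for Casp8 lies inside the annotated gene and is not shown.
Bcl2, chr1:106714325-106714540, minus strand: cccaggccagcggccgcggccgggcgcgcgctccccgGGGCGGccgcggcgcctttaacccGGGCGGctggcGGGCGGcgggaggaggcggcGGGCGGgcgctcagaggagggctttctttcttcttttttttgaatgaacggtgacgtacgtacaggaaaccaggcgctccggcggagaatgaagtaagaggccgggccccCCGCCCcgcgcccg
Casp12, chr9:5345226-5345441, plus strand: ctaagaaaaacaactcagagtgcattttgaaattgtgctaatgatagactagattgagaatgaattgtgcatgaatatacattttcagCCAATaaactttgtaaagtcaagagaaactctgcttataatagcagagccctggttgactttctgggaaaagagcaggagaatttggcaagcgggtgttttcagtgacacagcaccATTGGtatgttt

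The Bcl2 stretch is 73.1% G and C with 32 CpG dinucleotides and 5 matches to GGGCGG, some of them within longer G-rich runs. The Casp12 stretch is 37.5% G and C with 1 CpG and 2 matches to CCAAT. Over 32851 windows of this length in the table, the median was 51.9% G and C and 5 CpG, 27.9% held GGGCGG and 30.5% held CCAAT. Neither stretch held TATAAA, which 9.8% of the windows did at this length. For Bcl2, 250 bases lie before the annotated gene, and those nearest the gene were cut to match Casp12. In these windows TATAAA was commoner around the cut than far upstream (310 against 64 windows on the plus strand, 303 against 72 on the minus strand). Its absence from the stretches therefore says little about a TATA box. These matches describe letters only, and which start sites the cells used was not measured.

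Neither effector measured passed: Bak1, which permeabilises the outer mitochondrial membrane, or its relative Bok. Bak1 differed by 0.09 (interval -0.05 to 0.23) and Bok by 0.12 (-0.08 to 0.33).

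BH3-only genes gave no call over 8 arrays among 8 measured in limma. Of these 8, 1 had an unadjusted p below 0.05, beside 15.4% of all genes. It was Bid, the protein that caspase-8 cleaves to carry a receptor signal to mitochondria. Bid read 8.99 and 8.90 in DaxxA arrays and 8.94 and 9.02 in DaxxB arrays, against 8.66, 8.90, 8.65 and 8.74 in vector arrays. Vector replicate 2 came just below DaxxA replicate 2, both 8.90 when rounded, and the other 3 vector values were further down. Its difference was 0.22 (interval 0.07 to 0.38, adjusted p = 0.123) on 8 arrays and 0.28 (adjusted p = 0.00335) on 7.

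Bcl2l11, which encodes the BIM protein induced by growth factor withdrawal, showed how much 1 array weighed. It read 8.34, 8.16, 8.46 and 8.34 in Daxx arrays, against 8.15, 7.69, 8.22 and 8.23 in vector arrays. The difference was 0.13 without the vector value of 7.69 and 0.25 with it, and neither passed (adjusted p = 0.262 on 7 arrays and 0.394 on 8). Bmf, linked to detachment from the matrix in other cells, read 7.19 to 7.38 in Daxx arrays and 7.24 to 7.88 in vector arrays, with 7.88 in vector replicate 2. The remaining 5 genes, Bik, Bad, Hrk, Bbc3 and Pmaip1, differed by -0.09 to 0.12. Bbc3, the p53 target PUMA, averaged within the upper range of the olfactory receptor genes and below the 6.07 mark, so a change in it could be hidden by background.

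**Figure D2:**
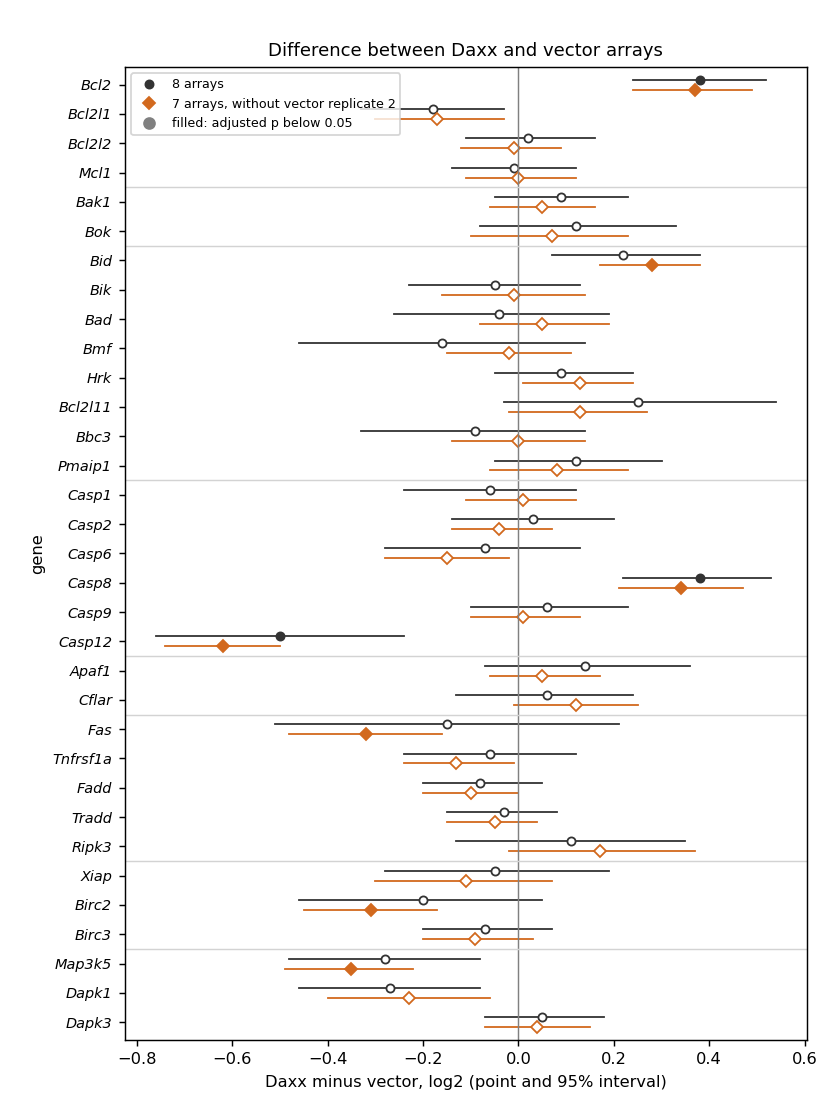
Difference between Daxx and vector arrays for the 33 genes on the log2 scale, with points for the estimate and lines for its 95% interval, over 8 arrays (circles) and over 7 arrays without vector replicate 2 (diamonds). Filled symbols passed an adjusted p of 0.05: 3 over 8 arrays and 7 over 7 arrays; intervals are wider over 8 arrays for Bmf, Bcl2l11, Fas and Casp12.

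Of 6 caspases measured, 1 rose, 1 fell and 4 did not pass. Casp8, the initiator of the receptor route, read 9.39 and 9.37 in DaxxA arrays and 9.27 and 9.31 in DaxxB arrays, against 9.09, 8.85, 8.87 and 9.02 in vector arrays. All 4 Daxx values were above all 4 vector values. The difference was 0.38 (SE 0.069, 1.3-fold, limma adjusted p = 0.0186, n = 4 and 4) and 0.34 on 7 arrays (adjusted p = 0.00352). The call was kept in 4 of the 8 fits without 1 array: it was lost without DaxxA replicate 1 (adjusted p = 0.0724), DaxxA replicate 2 (0.065), DaxxB replicate 2 (0.0633) or vector replicate 3 (0.0711), with differences of 0.35 to 0.39.

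Casp12, a caspase of the inflammatory group that is linked to stress of the endoplasmic reticulum in mice, moved the other way. It read 9.06, 9.03, 8.86 and 8.97 in Daxx arrays, against 9.65, 9.12, 9.55 and 9.60 in vector arrays. Vector replicate 2, at 9.12, lay close to the Daxx values but still above them. The difference was -0.50 (SE 0.116, 1.41-fold, adjusted p = 0.0483) on 8 arrays and -0.62 (SE 0.056, 1.54-fold, adjusted p = 4.43e-05) on 7. Leaving out any of the other 7 arrays ended the call, at -0.44 to -0.53 (adjusted p 0.106 to 0.151), while the fit at a common spread gave -0.58 (adjusted p = 0.00122).

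The apoptosome side did not pass. Casp9, its initiator caspase, differed by 0.06 (interval -0.10 to 0.23), and Apaf1, its scaffold, by 0.14 (-0.07 to 0.36). Casp2, activated in large complexes after DNA damage, differed by 0.03 and Casp6, an executioner, by -0.07. Casp1, which matures interleukin-1 beta, read 4.55 to 4.75 in Daxx arrays and 4.59 to 4.88 in vector arrays, in the middle of the olfactory receptor genes (43.1 percent of them were lower), so no level above background was shown for it.

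**Figure D3:**
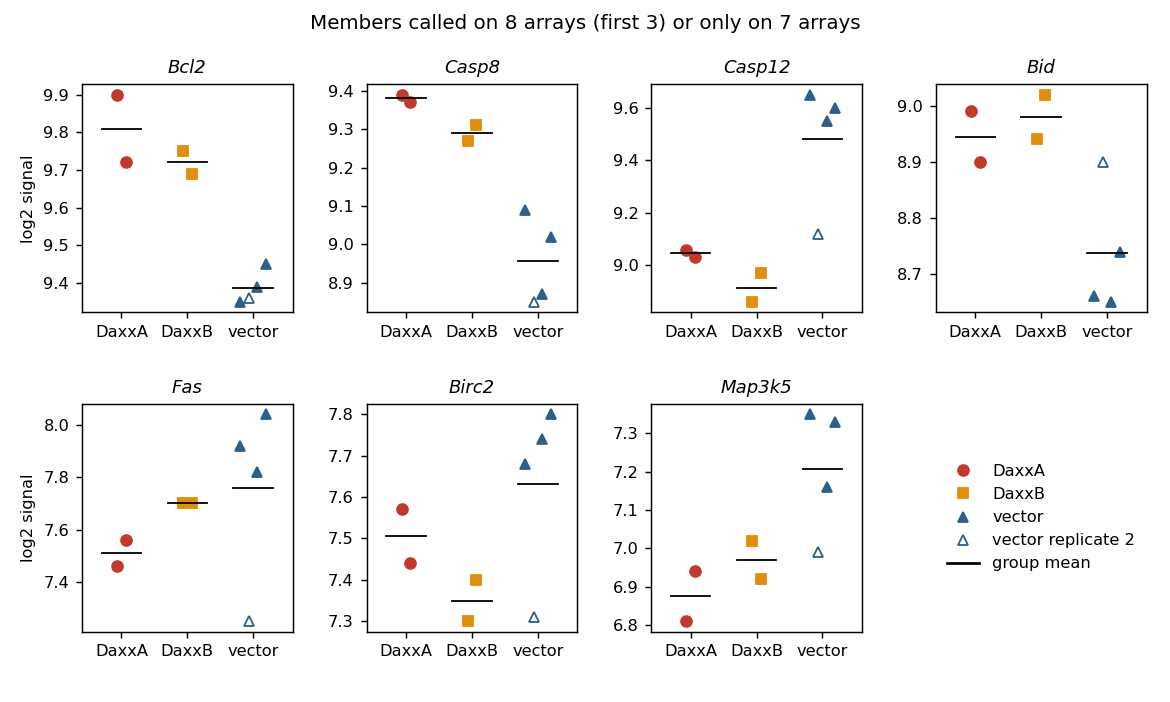
Log2 signals of the 3 genes called over 8 arrays (Bcl2, Casp8, Casp12) and the 4 called only over 7 (Bid, Fas, Birc2, Map3k5), with 1 symbol per array, DaxxA, DaxxB and vector from left to right, black lines for group means, and an open triangle for vector replicate 2. Each panel has its own axis range. The open triangle sits among or next to the Daxx values in Casp12, Bid, Birc2 and Map3k5, below them in Fas, and with the other vector values in Bcl2 and Casp8.

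Because caspase genes lie in clusters, the 5 protein-coding genes on either side of Casp8, of Casp12 and of Birc2 were read from the same fit, after the members' values were known. None of the 10 neighbours of Birc2 passed in limma over 8 arrays (lowest adjusted p = 0.267) or over 7 (0.103). Over 8 arrays 1 of them, Tmem123, had a 95% interval without 0, at -0.18 (-0.35 to -0.02). Cflar, which encodes the FLIP inhibitor of caspase-8, is the gene next to Casp8 on chromosome 1. It read 7.47, 7.56, 7.44 and 7.34 in Daxx arrays, against 7.28, 7.59, 7.30 and 7.41 in vector arrays, and its difference of 0.06 (interval -0.13 to 0.24) did not pass. The other 2 Cflar probe sets differed by 0.11 and 0.08 and did not pass either. Trak2, a mitochondrial transport adaptor 2 genes to the other side, rose by 0.32 (adjusted p = 0.019), close to the 0.38 of Casp8.

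On chromosome 9, both genes beside Casp12 fell. Casp4, the mouse caspase-11 that senses cytosolic lipopolysaccharide, read 7.21, 7.13, 7.18 and 7.25 in Daxx arrays, against 8.01, 7.66, 8.24 and 8.13 in vector arrays. Its difference was -0.81 (SE 0.114, 1.76-fold, limma adjusted p = 0.00462) on 8 arrays and -0.93 on 7 (adjusted p = 2.92e-06). Pdgfd, a platelet-derived growth factor on the other side of Casp12, differed by -1.01 (adjusted p = 0.000202). Casp1, 2 genes from Casp12, differed by -0.06 at background level, and the other 7 neighbours did not pass, Gria4 coming nearest at -0.43 (adjusted p = 0.0641). On 7 arrays Gria4 and Mmp13 were called too, both at -0.31 (adjusted p = 0.0017 and 0.00139).

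**Figure D4:**
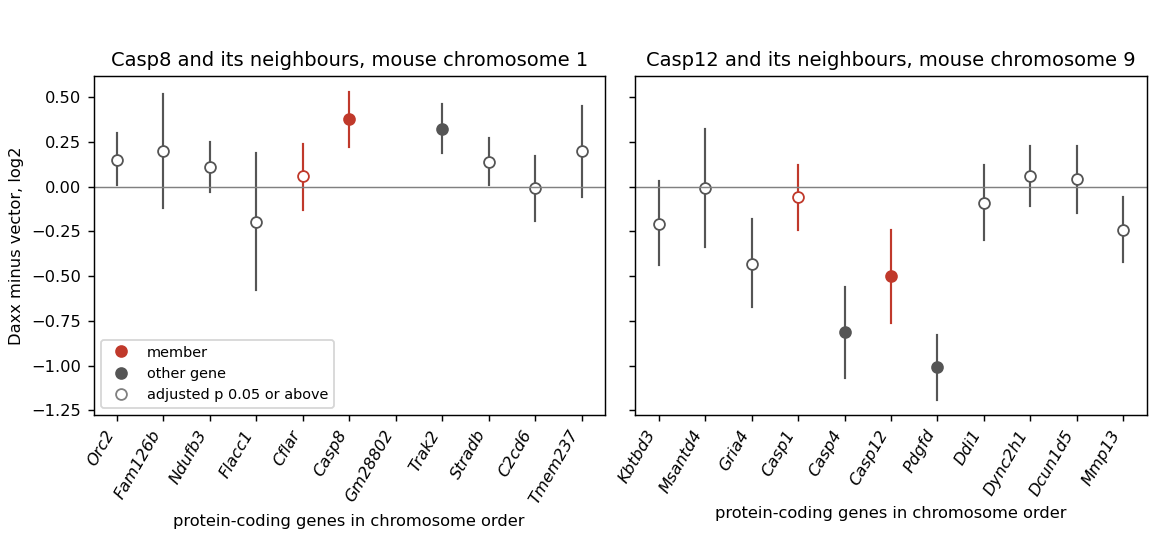
Difference between Daxx and vector arrays (log2, 8 arrays) for Casp8, Casp12 and the 5 protein-coding genes on either side of each, in chromosome order; lines are 95% intervals, red marks members of the list, and filled symbols passed an adjusted p of 0.05. Casp4, Casp12 and Pdgfd lie next to each other at -0.81, -0.50 and -1.01, while Casp8 and Trak2 stand at 0.38 and 0.32 with Cflar at 0.06; Gm28802 has no value.

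Death receptors and adaptors gave no call over 8 arrays among 5 measured. Of them 0 had an unadjusted p below 0.05 in limma, beside 15.4% of all genes. Fas, the receptor whose death domain Daxx was described to bind, read 7.46 and 7.56 in DaxxA arrays and 7.70 and 7.70 in DaxxB arrays, against 7.92, 7.25, 7.82 and 8.04 in vector arrays. Vector replicate 2, at 7.25, was below every Daxx array, and the other 3 vector arrays were above them all. The difference was -0.15 (interval -0.51 to 0.21, adjusted p = 0.7) on 8 arrays and -0.32 (interval -0.48 to -0.16, adjusted p = 0.0144) on 7. The call of Fas therefore rests on whether that array is counted.

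Tnfrsf1a, the main receptor for tumour necrosis factor, read 9.78, 9.76, 9.93 and 9.89 in Daxx arrays, against 9.95, 9.70, 9.97 and 9.98 in vector arrays. Its difference was -0.06 on 8 arrays and -0.13 on 7 (adjusted p = 0.149), the low value again being that of vector replicate 2. The adaptors Fadd and Tradd differed by -0.08 (interval -0.20 to 0.05) and -0.03 (-0.15 to 0.08). Ripk3, the kinase of necroptosis, differed by 0.11 (-0.13 to 0.35).

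Inhibitor of apoptosis proteins block caspases or ubiquitinate receptor complexes, and none of the 3 passed over 8 arrays. At an unadjusted p below 0.05 in limma there were 0, beside 15.4% of all genes. Birc2, which encodes cIAP1, read 7.57, 7.44, 7.30 and 7.40 in Daxx arrays, against 7.68, 7.31, 7.74 and 7.80 in vector arrays. Its difference was -0.20 (adjusted p = 0.466) on 8 arrays and -0.31 (adjusted p = 0.00895) on 7. A second Birc2 probe set gave 0.07 on 8 arrays and -0.10 on 7, neither of which passed, so the change was not seen by both. Birc3, its neighbour encoding cIAP2, differed by -0.07 (interval -0.20 to 0.07), and Xiap, the direct caspase inhibitor, by -0.05 (-0.28 to 0.19).

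The 3 kinases gave no call over 8 arrays. At an unadjusted p below 0.05 in limma there were 2 of the 3, beside 15.4% of all genes. Map3k5 read 6.81, 6.94, 7.02 and 6.92 in Daxx arrays, against 7.35, 6.99, 7.16 and 7.33 in vector arrays. Only vector replicate 2 reached into the Daxx range. The difference was -0.28 (interval -0.48 to -0.08, adjusted p = 0.141) on 8 arrays and -0.35 (adjusted p = 0.00396) on 7. Dapk1, a kinase of autophagic and interferon-induced death, read 6.34, 6.34, 6.62 and 6.47 in Daxx arrays, against 6.78, 6.82, 6.60 and 6.63 in vector arrays, with a difference of -0.27 (-0.46 to -0.08, adjusted p = 0.136) and -0.23 on 7 arrays (adjusted p = 0.077). Dapk3 differed by 0.05 (-0.07 to 0.18).

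DaxxA and DaxxB were then set separately against the vector arrays, which both comparisons share. For DaxxA, 1 of 33 members was called over 8 arrays, Bcl2 at 0.42 (adjusted p = 0.0343), beside 1.97% of all genes. For DaxxB the count was 0 of 33, beside 2.69% of all genes, with 5 members at an unadjusted p below 0.05 in limma, beside 14.5% of all genes, and Bcl2 at 0.33 (adjusted p = 0.0671). Casp8 stood at 0.42 in DaxxA (adjusted p = 0.0623) and 0.33 in DaxxB (0.108), and Casp12 at -0.43 (0.281) and -0.57 (0.114).

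Without vector replicate 2 the counts were 9 members for DaxxA, beside 11.3% of all genes, and 11 for DaxxB, beside 20.5%. The 2 comparisons share the vector arrays, so their values are given side by side. On the higher side, Bcl2 stood at 0.41 in DaxxA and 0.32 in DaxxB, Bid at 0.26 and 0.29, and Casp8 at 0.38 and 0.29. On the lower side, Casp12 stood at -0.55 in DaxxA and -0.69 in DaxxB, Fas at -0.42 and -0.23, Birc2 at -0.23 and -0.39, and Map3k5 at -0.40 and -0.31. All of these were called. DaxxA further held Tnfrsf1a at -0.20 (adjusted p = 0.0194) and Dapk1 at -0.33 (0.00906). DaxxB further held the BH3-only genes Hrk (0.18), Bcl2l11 (0.20) and Pmaip1 (0.19) and the kinase Ripk3 (0.31), with adjusted p-values of 0.0332, 0.0449, 0.031 and 0.0171.

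The direct test of DaxxA against DaxxB called none of the 33 members over 8 or 7 arrays, where it called 0% of all genes over 8 arrays and 2.15% over 7. At an unadjusted p below 0.05 there were 2 members over 8 arrays, Bik and Pmaip1, beside 4.24% of all genes, and 9 over 7 arrays, beside 22.3%. All 8 BH3-only genes read lower in DaxxA than in DaxxB, by 0.03 for Bid to 0.22 for Bik, as did 12716 of the 19938 genes. The largest difference was in Ripk3, at -0.26 (interval -0.56 to 0.04), which read 6.17 and 5.95 in DaxxA arrays and 6.43 and 6.22 in DaxxB arrays. Its mean lay just above the 6.07 mark, with 95.5% of the olfactory receptor genes lower, so background may weigh on this value. Xiap followed at 0.23 (-0.08 to 0.54) and Bik, a BH3-only protein of the endoplasmic reticulum, at -0.22 (-0.42 to -0.02). The genes that passed in only 1 of the comparisons with vector were thus not shown to differ between DaxxA and DaxxB.

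A further 82 measured genes of the same pathway, of 93 listed, were counted in the same fit. Over 8 arrays 3 rose, 2 fell and 77 did not pass (6.1%, beside 4.52% of all genes), with a median of 0.0368. Without vector replicate 2, 13 rose and 5 fell (22%, beside 12.8%), and 32 of the 82 did not overlap between the groups, beside 24.4% of all genes. Casp4, described above, and Xaf1, an antagonist of XIAP, were the 2 lower. Xaf1 read 7.98, 8.09, 7.86 and 8.02 in Daxx arrays, against 8.46, 8.23, 8.44 and 8.43 in vector arrays, a difference of -0.40 (adjusted p = 0.0179).

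The 3 pathway genes that rose were a receptor and 2 parts of stress kinase signalling. Tnfrsf21, which encodes death receptor 6, read 9.16, 9.09, 9.30 and 9.26 in Daxx arrays, against 8.89, 8.83, 8.88 and 8.85 in vector arrays. The groups were well apart, at 0.34 (SE 0.059, adjusted p = 0.0135). Jun, a transcription factor phosphorylated by JNK, read 10.24 to 10.33 in Daxx arrays and 9.72 to 9.99 in vector arrays, a rise of 0.38 (SE 0.070, adjusted p = 0.0175). Map2k3, an activator of p38 kinases, rose by 0.32 (SE 0.075, adjusted p = 0.0485), and its call was the weakest of the 5.

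The ligands of the receptors did not pass. Fasl, the ligand of Fas, had a level within that of the olfactory receptor genes and differed by -0.14 (interval -0.36 to 0.08), and Tnf by 0.01 (-0.24 to 0.25). Tnfrsf10b, the receptor for TRAIL, differed by 0.17 (-0.03 to 0.37). The JNK kinases Mapk8 and Mapk9 differed by -0.12 (-0.39 to 0.15) and -0.12 (-0.29 to 0.04), and Map2k4, which activates them, by 0.17 (-0.06 to 0.39). These values are over 8 arrays. Without vector replicate 2, 4 of 13 genes in the ASK1 and JNK group rose and 1 fell (38.5%, beside 12.8% of all genes). Of 16 ligands and receptors, 2 then rose and 1 fell (18.8%).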

How the data were processed

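Total RNA of 8 fibroblast samples was profiled on Affymetrix arrays. The authors deposited log2 signals; the submitters' processing notes name Expression Console and RMA. RMA corrects background, quantile-normalizes probes over arrays and summarises each probe set, which compresses small differences near background. Their versions and the build were not given in the sources used here. Of 35556 probe sets, 21789 had 1 symbol in the platform annotation, 1621 several and 12146 none. The probe set with the highest mean represented a gene, giving 19938 genes, and all 33 members matched a GRCm38.p6 gene by number.

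All genes were fitted together in limma 3.58.1 under R 4.3.3 (eBayes; Benjamini-Hochberg over all genes; called below 0.05), with Daxx minus vector over 2 conditions and DaxxA, DaxxB and vector over 3 groups. The fit was tested on simulated data with independent noise, of equal spread in every array for a given gene. These held no outlying array such as vector replicate 2 and no shared culture effect, so that test does not cover either. The number of arrays limits the precision. The members, lists and tests were chosen with earlier results of these data known. Values by sample were printed for members called in Daxx minus vector, over 8 arrays or only without vector replicate 2; others, chosen by role or by their values, have differences, ranges or some values. Alternatives are given in the closing section.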

Additional observations from a re-analysis of the deposited data

Results flagged for a closer look

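Within the 4 arrays of a condition, a single array lay far from the others, by Dixon's criterion at the 95% level, for 4 of the 33 genes, and each time the array was vector replicate 2. Bcl2l2 read 6.94 there, against 7.07 to 7.08 in the other vector arrays. Bcl2l11 read 7.69, against 8.15 to 8.23. Tnfrsf1a read 9.70, against 9.95 to 9.98. Ripk3 read 6.27, against 6.01 to 6.04. The criterion was applied to 68 sets of 4 values and marked 4 of them. Among independent sets, chance alone marks about 1 in 20. Genes on the same array are not independent, and all 4 marks fell in 1 array, so that rate gives no verdict on them. Their cause was not tested. No member passed the test of DaxxA against DaxxB.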

How the results depend on the processing

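Leaving out 1 array at a time, the called members of Daxx against vector numbered 1 to 7 (3 over 8 arrays), those of DaxxA against vector 0 to 9 (1 over 8 arrays), those of DaxxB against vector 0 to 11 (0 over 8 arrays) and the pathway genes 1 to 18 (5 over 8 arrays); all genes called numbered 446 to 2558 (902 over 8 arrays). The highest count was without vector replicate 2 each time, where 12.8% of all genes were called for Daxx, 11.3% for DaxxA and 20.5% for DaxxB. With a replicate block over the 6 arrays numbered 1 and 2, the counts were 0 members for Daxx, 0 for DaxxA, 0 pathway genes and 162 genes in all; the same 6 arrays without the block, a setting chosen after seeing the data, gave 0, 0, 1 and 236. Fas, at -0.15 over 8 arrays, was 0.02 in both of these, and Bcl2 was 0.41 in both (limma adjusted p = 0.115 with the block and 0.0858 without). Each group has 1 array of each number, so the block leaves the differences as they are and both settings give the same estimate. These 6 arrays keep the Fas vector values 7.92 and 7.25 (replicate 2) and leave out 7.82 and 8.04. Why vector replicate 2 stands apart was not tested. The shared numbers are not tied to a culture or day, and same-numbered arrays deviated together at r = 0.10 for DaxxA and DaxxB, 0.13 for DaxxA and vector and 0.04 for DaxxB and vector.

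With arrays set to a common median and spread, 1 member was called for Daxx (Casp12), 1 for DaxxA and 1 for DaxxB, and genes in all split into 197 higher and 518 lower, against 358 and 544. A filter on dim probe sets gave 2 members for DaxxA, 2 for DaxxB and 11 pathway genes of the 67 left. With that filter 1334 genes in all were called for Daxx, of 12974 left, against 902 of 19938 without it. A trended and robust variance gave 2, 1 and 9, and 1287 genes in all for Daxx. Array weights gave 8 members for Daxx, 11 for DaxxA, 10 for DaxxB and 20 pathway genes, with 3231 of 19938 genes in all called for Daxx. The shares of all genes called for DaxxA and for DaxxB in these settings are not given here. Their member counts in this paragraph therefore cannot be read as a result about the members. Fitting only the DaxxA and vector arrays gave 0 members, and fitting only the DaxxB and vector arrays gave 0. DaxxA against DaxxB gave 0 members in every setting run.

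Over the 7 members called for Daxx against vector on 8 or on 7 arrays, 105 alternative values were computed. Of these, 76 kept direction and side of the threshold, 19 lost the call, 8 gained it and 2 reversed, both in Fas. These 2 are the same estimate, over the 6 arrays with and without the replicate block. All 19 losses were in Bcl2, Casp8 and Casp12, the only members with a call over 8 arrays to lose. Values of Bid, Fas, Birc2 and Map3k5 that stayed uncalled are counted among the 76. Outside these 7, Dapk1 was called with array weights (-0.24, adjusted p = 0.0262), and Tnfrsf1a, at -0.06 over 8 arrays, was 0.01 over the 6 arrays with and without the replicate block. The Daxx probe set differed by 0.10 to 0.26 without 1 array, past the threshold in 0 of 8. Precision is limited by the number of arrays, 2 each of DaxxA and DaxxB, and the members' median half-interval was 0.18 over 8 arrays and 0.13 without vector replicate 2. Casp1 and Bbc3 lay near background, and Ripk3 averaged just above the 6.07 mark.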
